A study of Rattus norvegicus with 18 samples.

Results

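The miR-17/92 cluster is a group of microRNAs (miRNAs) cut from shared primary transcripts. Entries of the count table named miR-17, miR-18a, miR-19a, miR-19b, miR-20a or miR-92a, with any copy or arm suffix, were taken as the cluster. The table held 753 mature miRNAs, of which 15 carried these names. Of these 15 entries, 6 exceeded 10 counts in 6 or more of the 18 libraries and make up the members described here, among 373 miRNAs that met the same filter.

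Small RNA libraries were made from the dorsal root ganglia (DRG), which hold the cell bodies of sensory neurons with their satellite and Schwann cells, of cervical levels C6 to C8 of adult Lister Hooded rats. Naive rats were left without surgery or vector. In the bPYX+GFP and bPYX+NT3 rats the corticospinal tracts were cut on both sides in the medullary pyramids (bilateral pyramidotomy, bPYX). On the following day the forelimb flexor muscles of 1 side were injected with adeno-associated virus AAV1-CMV-EGFP, carrying green fluorescent protein, or AAV1-CMV-NT3, carrying human neurotrophin-3, a growth factor of proprioceptive neurons. Both transgenes were driven by the CMV promoter, which is active in many cell types. Ganglia of the injured rats were taken 10 weeks after surgery, those of the treated side were pooled within each rat, and each group held 6 rats with 1 library per rat. As no rat had the injury without a vector or a vector without the injury, injury, surgery and vector cannot be told apart in the comparisons with naive rats. In whole ganglia, fewer cells of a type and less RNA per cell cannot be told apart either.

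A miRNA is a short RNA that is cut from an arm (5p or 3p) of a hairpin and guides Argonaute proteins to messenger RNAs, mostly through its seed, bases 2 to 8. The miR-17/92 transcript is best known as a driver of cell proliferation and survival that is induced by MYC, and in the nervous system for its role in neural progenitors. In rat DRG the cluster has also been linked to the expression of potassium channels after injury of a peripheral nerve. Mammals carry related clusters, among them the X-linked cluster that runs from Mir106a to Mir363 and the miR-106b/25 cluster, whose members share seeds with miR-17, miR-20a and miR-92a.

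Mature sequences were taken from RefSeq (assembly GRCr8), which held all 15 entries. They are shown 5′ to 3′ with the seed in capitals, because the seed decides which of these miRNAs share targets and because small differences outside it decide to which copy a read can be assigned. The arms that are usually the abundant products of the cluster are shown first.
miR-92a-3p: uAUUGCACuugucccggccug
miR-20a-5p: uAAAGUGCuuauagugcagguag
miR-17-5p: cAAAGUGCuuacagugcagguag
miR-18a-5p: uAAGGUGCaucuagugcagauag
miR-19a-3p: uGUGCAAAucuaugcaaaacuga
miR-19b-3p: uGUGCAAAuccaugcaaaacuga
The other members are the opposite arms of their hairpins.
miR-17-1-3p: aCUGCAGUgaaggcacuugugg
miR-17-2-3p: aCUGCACUgcaagcacuucuuac
miR-92a-1-5p: aGGUUGGGauuugucgcaaugcu
The X-linked relatives to which the results below refer are shown for comparison.
miR-20b-5p: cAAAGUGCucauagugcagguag
miR-20b-3p: aCUGCAGUgugagcacuucugg
miR-363-5p: cGGGUGGAucacgaugcaauuu
miR-363-3p: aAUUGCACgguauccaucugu
miR-20a-5p and miR-17-5p shared the seed AAAGUGC and differed by 2 edits over their full length, and miR-19a-3p and miR-19b-3p differed by 1 edit. miR-17-1-3p had the seed of the X-linked miR-20b-3p, CUGCAGU, whereas the seed of miR-17-2-3p was held by no other entry of the cluster or of its relatives. The seed of miR-18a-5p, AAGGUGC, was likewise held by that entry only among them.

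RefSeq placed a chain of 6 genes, Mir17, Mir18a, Mir19a, Mir20a, Mir19b1 and Mir92a1, on chromosome 15 and a chain of 5 genes, Mir106a, Mir20b, Mir19b2, Mir92a2 and Mir363, on the X chromosome. The sequences of miR-17-5p, miR-19b-3p and miR-92a-3p occurred in both chains, so the count of miR-92a-3p may hold reads of both. miR-20a-5p, miR-18a-5p, miR-17-1-3p and miR-92a-1-5p occurred on chromosome 15 only. miR-17-2-3p occurred only in the X-linked Mir106a hairpin, so that its name goes with miR-17 but its place goes with the X-linked cluster. The authors aligned reads to another assembly, Rnor_5.0, and the number of copies there was not analysed here.

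The libraries held 4.70 ± 0.66 M counts of miRNAs (SD, n = 18; M stands for mega), from 3.88 to 6.92 M. A further 31.4 ± 1.88% of all reads had too low an alignment quality to be counted, a class that takes in reads with several equally good places. A limit of 3 counts corresponded to 0.433 to 0.773 counts per M (CPM), depending on the library. miR-182, a miRNA of sensory neurons, stood at 25160 CPM, while miR-183-5p of the same neuronal cluster was listed at 0. Of 8 skeletal muscle markers 4 were listed at 0, among them miR-1-3p and miR-133a-3p, while miR-206-3p stood at 114 CPM and miR-133b-3p at 42.4 CPM. Of 5 glial markers 3 were listed at 0, miR-338-3p and miR-338-5p among them, while miR-219a-1-3p stood at 27.3 CPM.

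The 6 members were 92a-3p, 20a-5p, 17-2-3p, 17-1-3p, 18a-5p and 92a-1-5p. Each met the filter without resting on 1 group: miR-92a-3p, miR-20a-5p, miR-17-1-3p and miR-17-2-3p had more than 10 counts in all 18 libraries, miR-18a-5p in 17 and miR-92a-1-5p in 15. The other 9 entries had few reads. Over all libraries together miR-19a-3p had 134 counts, with 3 to 13 in a library, and miR-18a-3p had 114, with 2 to 12. miR-17-5p, usually an abundant arm of the cluster, had 31 counts, with 0 to 4 in a library. miR-20a-3p had 26 counts, miR-19b-1-5p 13, miR-92a-2-5p 7, miR-19a-5p 4 and miR-19b-3p 1. miR-19b-2-5p had 0 counts in every library, which allows a level of up to 0.433 to 0.773 CPM, with counting error only. Of the sequences found in both chains, miR-17-5p and miR-19b-3p were thus almost without counts, whereas miR-92a-3p was the most abundant entry of the cluster. The copies of miR-17-5p were identical over 27 bases, those of miR-19b-3p over 25 and those of miR-92a-3p over 23, including the mature sequence. Whether reads of miR-17-5p and miR-19b-3p are among those left uncounted for low alignment quality was not tested.

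**Figure D1:**
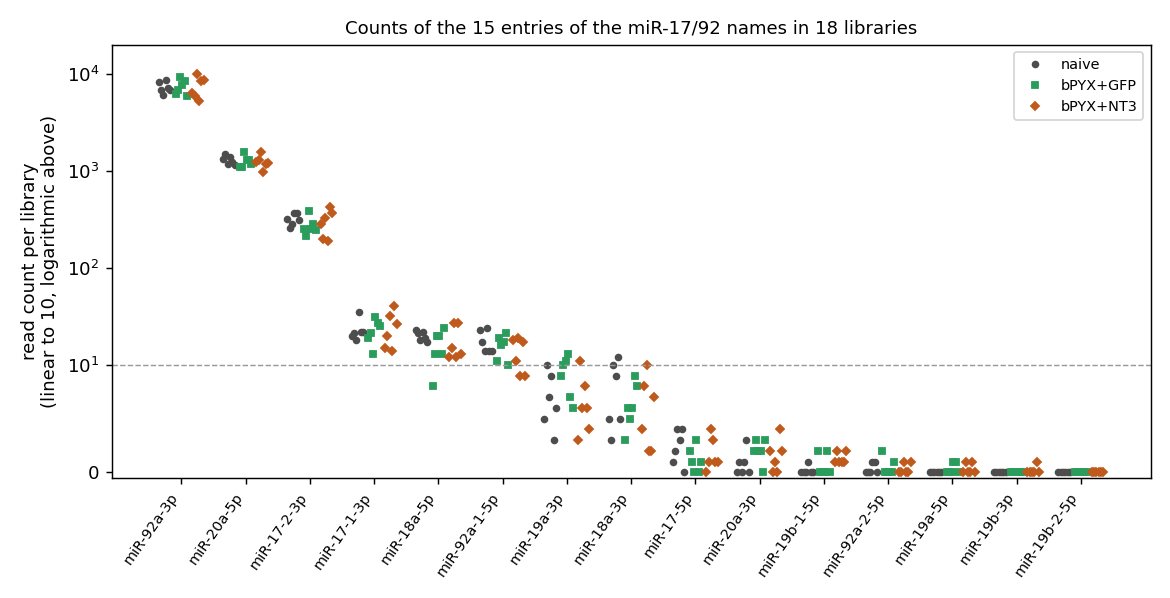
Read count in each of 18 libraries (points, by group) for the 15 entries named as cluster; the y axis is linear up to 10 counts (dashed line) and logarithmic above. miR-17-5p, miR-19a-3p and miR-19b-3p lie far below miR-92a-3p and miR-20a-5p.

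miR-92a-3p, best known for restraining the growth of blood vessels, led the cluster. Over all rats its level was 1570 ± 221 CPM (SD, n = 18; CPM here and below after TMM scaling of library sizes), which ranked 50 among the miRNAs of the table. miR-20a-5p, a member of the miR-17 family that represses inhibitors of the cell cycle, followed at 271 ± 37.3 CPM and rank 115. miR-17-2-3p, the 3p arm of the X-linked Mir106a hairpin, stood at 62.5 ± 9.85 CPM. The ranges of these 3 levels over the libraries did not overlap, and their means differed by factors of 5.79 and 4.34. miR-17-1-3p, the 3p arm of the Mir17 hairpin, lay 12.5-fold below miR-17-2-3p at 5.01 ± 1.44 CPM, again without overlap. miR-18a-5p, a relative of miR-17 with another seed, stood at 3.86 ± 1.17 CPM, and miR-92a-1-5p, the arm opposite miR-92a-3p, at 3.37 ± 0.97 CPM. The order of these last 3 members was not fixed. miR-17-1-3p was above miR-18a-5p in 14 of 18 libraries and miR-18a-5p above miR-92a-1-5p in 12 of 18, with overlapping ranges. Levels of different miRNAs also depend on how well each was ligated and aligned, so the order is one of counts.

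The rare members varied more between libraries, and counting error was a larger part of it. The coefficient of variation over 18 libraries was 14.1% for miR-92a-3p, of which counting alone would give 1.16%, and 13.8% for miR-20a-5p, with 2.81% from counting. For miR-92a-1-5p it was 28.9%, with 25.2% from counting, and for miR-18a-5p 30.3%, with 23.6% from counting. For miR-17-1-3p it was 28.8%, with 20.7% from counting.

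Summed over the 6 members, the level was 1926 ± 254 CPM in naive rats, 1844 ± 187 CPM in bPYX+GFP and 1978 ± 316 CPM in bPYX+NT3 (SD, n = 6 each), with overlapping ranges. miR-92a-3p made up 81.9 ± 1.58% of this sum (SD, n = 18), so the sum mainly follows that miRNA. The arms of a hairpin were counted very unequally. miR-20a was counted as its 5p arm to 99.88 ± 0.11%, and miR-18a as its 5p arm to 74.0 ± 9.35% (SD, n = 18). Reads of miR-92a-3p outnumbered those of miR-92a-1-5p by 469 to 1, where the 3p reads may come from both copies.

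Within the seed AUUGCAC, miR-92a-3p had the highest mean share of 5 miRNAs, with 32.9 ± 3.34% of the counts (SD, n = 18). miR-25-3p of the miR-106b/25 cluster held 27.7% and the X-linked miR-363-3p 21.0%. The ranges over libraries overlapped between miR-92a-3p (27.9 to 40.5%) and miR-25-3p (25.3 to 30.3%). In bPYX+GFP replicate 3 miR-25-3p was the higher, at 1485 CPM against 1471 CPM. The share of miR-92a-3p was 32.6 ± 3.83% in naive rats, 31.98 ± 2.68% in bPYX+GFP and 34.0 ± 3.67% in bPYX+NT3 (SD, n = 6 each), differences smaller than the spread within a group. Within the seed AAAGUGC the largest share, 51.2 ± 2.28%, belonged to miR-93-5p, followed by miR-20a-5p with 30.5 ± 2.59% and miR-20b-5p with 12.0 ± 1.72% (SD, n = 18). miR-17-5p had 0.0430% of that seed's counts.

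Against naive rats, the bPYX+GFP group shows what had changed 10 weeks after injury with the control vector. None of the 6 members had an adjusted p under 0.05 (edgeR quasi-likelihood F test, Benjamini-Hochberg adjustment over 373 miRNAs), beside 2.41% of all tested miRNAs. At an unadjusted p under 0.05, which the study used as its criterion, 1 of 6 members differed, which is 16.7% of them, beside 21.2% of all tested miRNAs (10.7% higher and 10.5% lower in bPYX+GFP); the member was miR-17-2-3p. With the DESeq2 Wald test the counts were also 0 and 1. The study left out naive replicate 1, which is kept here, and its edgeR lists give a likelihood ratio statistic. On leaving out any 1 library the adjusted count stayed 0 and the unadjusted count was 1 to 2. All 6 fold changes were below 0 and their median was -0.17 on the log2 scale, beside 0.00 over all tested miRNAs, and the median size was 0.17 beside 0.14. Leaving out 1 library could turn miR-92a-3p (highest value 0.0092) and miR-17-1-3p (highest value 0.13) above 0.

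miR-17-2-3p was lower in bPYX+GFP than in naive rats at the unadjusted threshold. In naive rats its lowest, median and highest levels were 62.3, 67.7 and 74.2 CPM. In bPYX+GFP rats they were 46.8, 56.3 and 61.6 CPM. The groups did not overlap, as was so for 4.02% of all tested miRNAs in this comparison. The log2 fold change was -0.29 ± 0.09 (SE; 95% interval -0.48 to -0.10), with an unadjusted p of 0.00457 and an adjusted p of 0.0812 by the edgeR quasi-likelihood F test. It ranked 21 of 373 by p, and it missed the adjusted threshold.

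The other members overlapped between bPYX+GFP and naive rats. miR-92a-3p had a lowest, median and highest level of 1328, 1541 and 1855 CPM in naive rats and of 1342, 1470 and 1744 CPM in bPYX+GFP. Its log2 fold change of -0.05 ± 0.10 (SE) had a 95% interval from -0.25 to 0.16. miR-20a-5p had 239, 268 and 367 CPM in naive rats and 239, 255 and 294 CPM in bPYX+GFP, with a log2 fold change of -0.11 ± 0.10 (SE; 95% interval -0.33 to 0.11), which was -0.015 without naive replicate 2. The rare members were measured less precisely. miR-18a-5p had 3.52, 4.17 and 5.20 CPM in naive rats and 1.74, 3.00 and 5.53 CPM in bPYX+GFP, and its log2 fold change was -0.35 ± 0.25 (SE), adjusted p 0.466 by edgeR. miR-92a-1-5p had 2.73, 3.63 and 5.15 CPM against 2.30, 3.19 and 4.27 CPM, with a log2 fold change of -0.23 ± 0.24 (SE). miR-17-1-3p had 3.93, 4.52 and 7.02 CPM against 2.06, 5.03 and 6.99 CPM, with a log2 fold change of -0.05 ± 0.25 (SE; 95% interval -0.58 to 0.48). The interval of this last value runs wide on both sides of 0, and no difference was detectable at this depth.

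**Figure D2:**
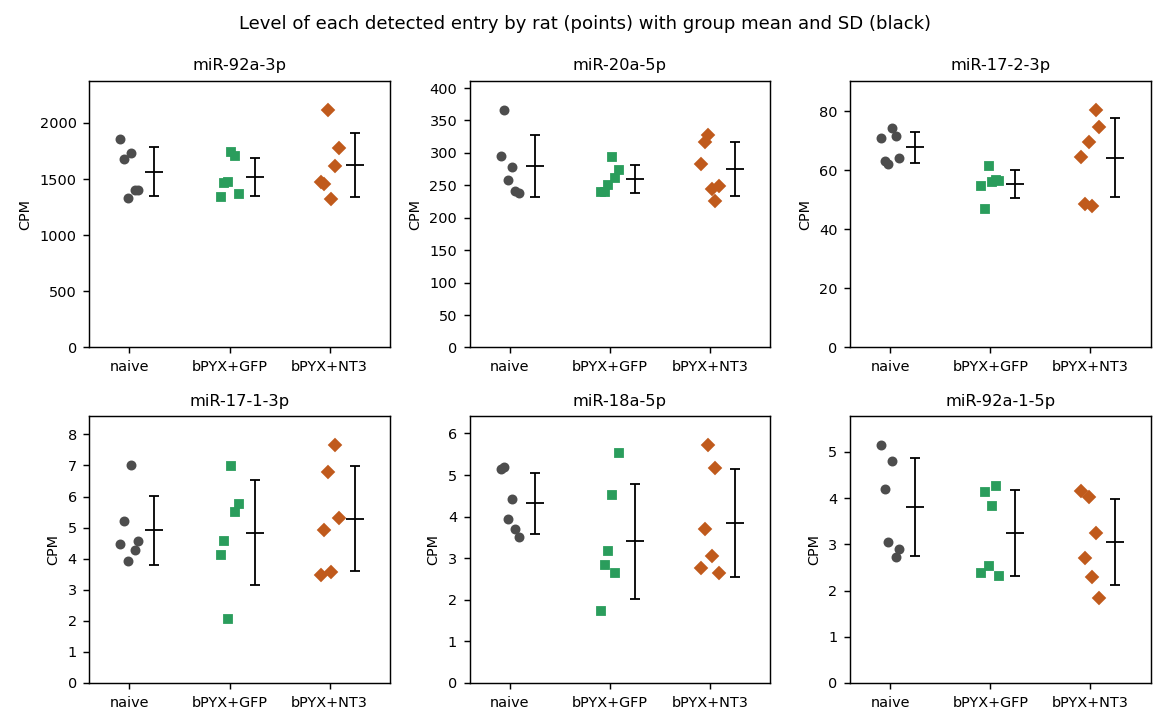
Level of each of the 6 members in every library, in CPM after TMM scaling, by group (naive, bPYX+GFP, bPYX+NT3; 6 rats each); points are libraries and black marks give the mean and SD. The panel of miR-17-2-3p shows all 6 bPYX+GFP libraries (46.8 to 61.6 CPM) below all 6 naive libraries (62.3 to 74.2 CPM); the groups overlap in the other panels.

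The injured groups differed in the transgene, so that their comparison bears on neurotrophin-3. By the same edgeR test 0 of 6 members had an adjusted p under 0.05 (0% of all tested miRNAs) and 0 of 6 had an unadjusted p under 0.05, beside 8.58% of all tested miRNAs (5.09% higher and 3.49% lower in bPYX+NT3). DESeq2 gave 0 and 0 as well. The smallest adjusted p over all 373 miRNAs was 0.217. The median log2 fold change of the members was 0.14, beside -0.00 over all tested miRNAs, and 5 of 6 values were above 0. miR-17-2-3p had a lowest, median and highest level of 48.1, 67.2 and 80.6 CPM in bPYX+NT3, and 4 of its 6 libraries lay above every bPYX+GFP library. The remaining libraries, replicates 2 and 4, stood at 48.5 and 48.1 CPM, within the range of bPYX+GFP. The log2 fold change was 0.23 ± 0.12 (SE; 95% interval -0.04 to 0.49), with an unadjusted p of 0.0856 and an adjusted p of 0.617 by edgeR. Without replicate 2 the unadjusted p was 0.0404 and without replicate 4 it was 0.0212, with adjusted p-values of 0.377 and 0.226 by edgeR. Both omissions took away a library with one of the lowest levels of bPYX+NT3. These were the only 2 of 21 alternatives with an unadjusted p under 0.05. miR-92a-3p stood at 1321, 1546 and 2119 CPM in bPYX+NT3, a log2 fold change of 0.11 ± 0.12 (SE; 95% interval -0.14 to 0.36). miR-20a-5p stood at 226, 266 and 328 CPM, a log2 fold change of 0.10 ± 0.10 (SE; 95% interval -0.13 to 0.32), which was 0.0034 without bPYX+NT3 replicate 3. The rare members had log2 fold changes of 0.22 ± 0.29 for miR-18a-5p, 0.17 ± 0.28 for miR-17-1-3p and -0.08 ± 0.26 for miR-92a-1-5p (SE).

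When bPYX+NT3 was set against naive rats, 0 of 6 members had an adjusted p under 0.05 (edgeR; 0% of all tested miRNAs) and 0 of 6 had an unadjusted p under 0.05, beside 13.7% of all tested miRNAs (7.24% higher and 6.43% lower in bPYX+NT3). DESeq2 gave 0 and 0. The members' groups overlapped without exception, whereas 1.34% of all tested miRNAs had groups that did not. The median log2 fold change of the members was -0.05, beside -0.01 over all tested miRNAs. For miR-17-2-3p it was -0.07 ± 0.13 (SE; 95% interval -0.35 to 0.21), for miR-20a-5p -0.03 ± 0.12 and for miR-92a-3p 0.06 ± 0.12 (SE). The largest size belonged to miR-92a-1-5p, whose lowest, median and highest levels in bPYX+NT3 were 1.84, 2.98 and 4.15 CPM. Its log2 fold change was -0.31 ± 0.25 (SE), adjusted p 0.619 by edgeR. The comparisons share libraries, so their values are set side by side and not counted as separate evidence.

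**Figure D3:**
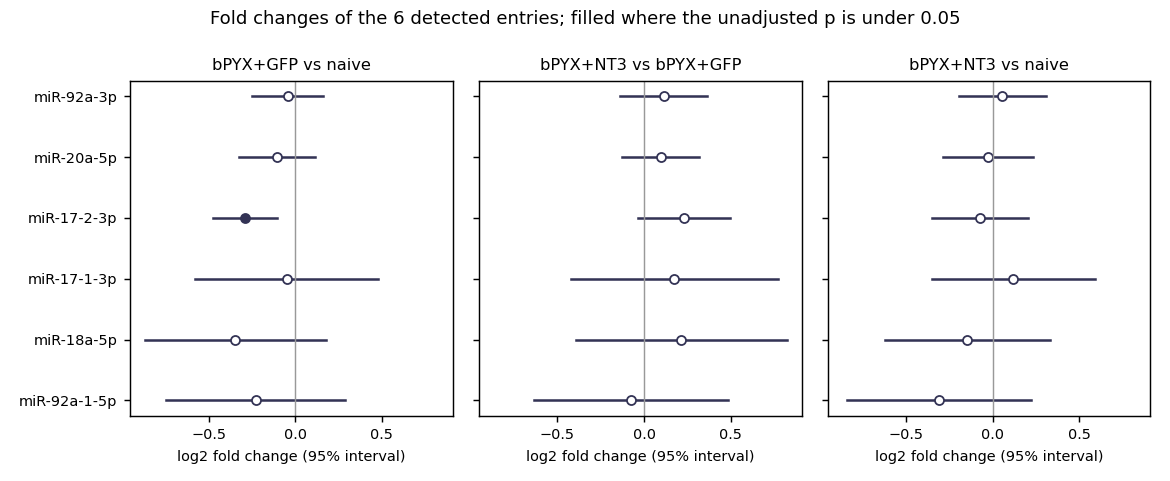
Log2 fold change of the 6 members in the 3 comparisons, with 95% intervals; a filled point marks an unadjusted p under 0.05. Only miR-17-2-3p in bPYX+GFP against naive is filled (-0.29), and the intervals of the other values include 0.

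The related list held every arm of miR-106b, miR-93, miR-25, miR-20b, miR-363, miR-92b and miR-32, 14 entries that all met the filter. None had an adjusted p under 0.05 in any comparison (edgeR). Over all tested miRNAs the share was 2.41% in bPYX+GFP against naive and 0% in the other comparisons. In bPYX+GFP against naive, 2 of 14 were higher and 4 of 14 lower at an unadjusted p under 0.05, beside 10.7% and 10.5% of all tested miRNAs. The higher ones were miR-106b-3p (log2 fold change 0.22) and miR-25-3p (0.13), both of the miR-106b/25 cluster. The lower ones were the X-linked miR-20b-3p, miR-363-3p and miR-363-5p, together with miR-32-3p (-0.39), whose gene lies outside these clusters. Between the injured groups, only miR-106b-3p passed, with a log2 fold change of -0.20 in bPYX+NT3, beside 8.58% of all tested miRNAs. Against the same naive libraries, bPYX+NT3 had 0 of 14 entries higher and 4 of 14 lower, beside 7.24% and 6.43% of all tested miRNAs. The 4 were miR-363-5p (-0.64), miR-32-3p (-0.42), miR-20b-3p (-0.32) and miR-363-3p (-0.19).

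The X-linked entries of this list lie in the same chain as miR-17-2-3p, and their values are given together. The grouping by chromosome was formed after the values had been seen and carries no test of its own. miR-20b-3p had a lowest, median and highest level of 39.6, 52.7 and 59.2 CPM in naive rats and of 35.3, 39.7 and 45.6 CPM in bPYX+GFP. Its log2 fold change was -0.36 ± 0.11 (SE), with an adjusted p of 0.08997 by edgeR. miR-363-3p, which has the seed of miR-92a-3p, had 954, 1089 and 1334 CPM in naive rats and 774, 910 and 1063 CPM in bPYX+GFP. Its log2 fold change was -0.28 ± 0.09 (SE), with an adjusted p of 0.0894 by edgeR. The groups overlapped for both. miR-363-5p was rare, at 4.82, 5.45 and 8.52 CPM in naive rats and 2.18, 3.31 and 6.30 CPM in bPYX+GFP, with a log2 fold change of -0.65 ± 0.24 (SE). miR-20b-5p, a miR-17 family member, had 92.5, 116.8 and 151 CPM in naive rats and 85.6, 102.4 and 113 CPM in bPYX+GFP, with a log2 fold change of -0.21 and an unadjusted p of 0.104 by edgeR.

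Of these 5 X-linked entries, miR-17-2-3p included, 4 had an unadjusted p under 0.05 and were lower in bPYX+GFP than in naive rats, as were 10.5% of all tested miRNAs, and the median log2 fold change was -0.29. Between the injured groups 0 of 5 passed, beside 8.58% of all tested miRNAs, and the median was 0.05. Against naive rats 3 of 5 were lower in bPYX+NT3 at that threshold, as were 6.43% of all tested miRNAs, with a median of -0.22; this count fell to 1 on leaving out replicate 3 or 6 of the naive group or replicate 3, 4 or 5 of bPYX+NT3. Of the 4 members found on chromosome 15 only, 0 passed in any of the 3 comparisons, beside 21.2%, 8.58% and 13.7% of all tested miRNAs. Their median log2 fold changes were -0.17, 0.13 and -0.09, and a difference from the X-linked entries was not tested. Against naive rats, the 95% intervals of the log2 fold change in bPYX+NT3 overlapped between miR-17-2-3p (-0.35 to 0.21), miR-20b-3p (-0.63 to -0.02) and miR-20b-5p (-0.51 to 0.07); a difference between these entries was not tested. Across the 18 libraries, after removal of group means, Pearson's r of miR-17-2-3p was 0.35 with miR-363-5p, 0.25 with miR-363-3p, -0.02 with miR-20b-5p and -0.07 with miR-20b-3p, with adjusted permutation p-values of at least 0.687 over 12 pairs. Without the 2 farthest libraries these values were 0.18, 0.20, -0.27 and -0.11.

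**Figure D4:**
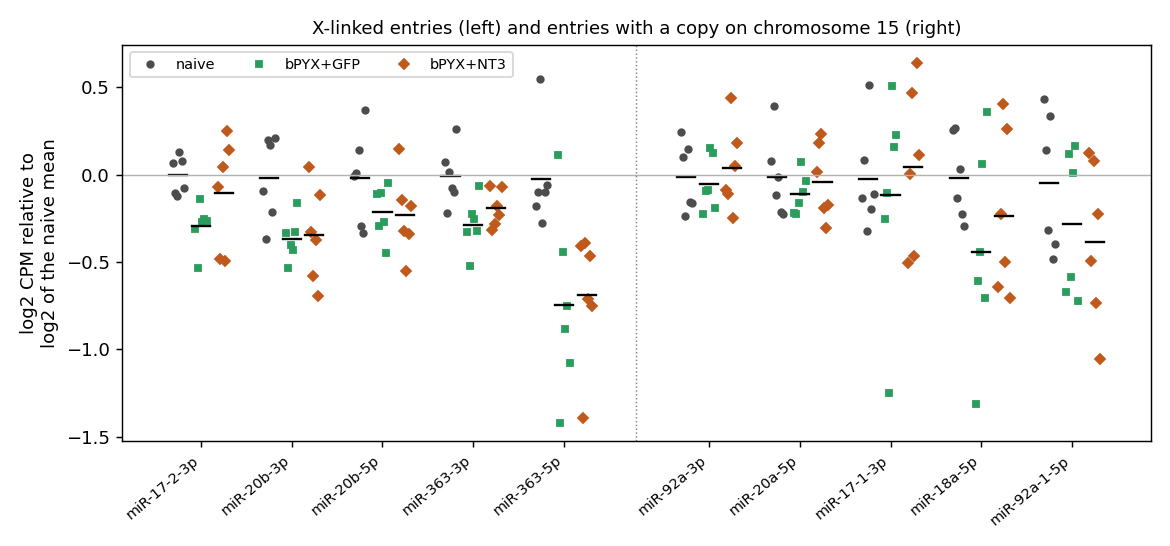
Level of each library relative to the naive mean (log2 CPM minus log2 of the naive mean), by group. Only entries of the cluster and of its X-linked chain that met the detection filter are shown. On the left are the 5 that RefSeq places on the X chromosome only. On the right are the 5 with a copy on chromosome 15, of which miR-92a-3p is found on both. Points are libraries and black marks are group means. The bPYX+GFP libraries of the X-linked entries lie below 0 except for 1 of miR-363-5p, and those on the right lie on both sides of 0.

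Some markers of cell types in the ganglia differed between bPYX+GFP and naive rats at an unadjusted p under 0.05 by edgeR. None of the tested entries of blood and immune cells (9), skeletal muscle (2), endothelium (1) or glia (1) did so. Over all tested miRNAs 21.2% did. Of the 4 tested entries of sensory neurons 2 were higher, miR-182 and miR-183-3p (log2 fold changes 0.20 and 0.23, adjusted p 0.173 and 0.222), beside 10.7% of all tested miRNAs. miR-96-5p and miR-96-3p had log2 fold changes of 0.07 and 0.01. The summed level of the sensory neuron list ran from 23684 to 31046 CPM in naive rats and from 29010 to 33150 CPM in bPYX+GFP. Of the 3 tested entries of fibroblasts 1 was lower, miR-199a-5p with a log2 fold change of -0.21 (unadjusted p 0.0416 by edgeR), beside 10.5% of all tested miRNAs. miR-199a-3p had a log2 fold change of -0.01 and miR-214-3p one of -0.04. The summed fibroblast list, mostly miR-199a-5p, ran from 1627 to 2459 CPM in naive rats and from 1387 to 1870 CPM in bPYX+GFP. In bPYX+NT3 against naive, 1 of 4 sensory neuron entries was higher at that threshold, beside 7.24% of all tested miRNAs. It was miR-182, with a log2 fold change of 0.19 (unadjusted p 0.0407 by edgeR). miR-183-3p had 0.25 (unadjusted p 0.0503 by edgeR), miR-96-5p -0.04 and miR-96-3p -0.19. Of 3 fibroblast entries 0 were lower at that threshold, beside 6.43% of all tested miRNAs. miR-199a-5p had -0.20 (unadjusted p 0.0501 by edgeR), miR-199a-3p -0.02 and miR-214-3p 0.01. The part of cell composition in the levels of the cluster was not tested.

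Members of the chromosome 15 chain are thought to be cut from a shared transcript, and miR-17-2-3p lies in the other chain. The variation of the members between rats was compared after removal of group means. Over 15 pairs of members and 18 libraries the median Pearson's r of log2 CPM was 0.45 and the median Spearman's rho 0.46, beside medians of 0.0114 and 0.00929 over all 69378 pairs of tested miRNAs. The members share libraries, depth and scaling with each other, and the median is a description. For the pairs without miR-17-2-3p the median Pearson's r was 0.47. Without bPYX+NT3 replicate 3 the median Pearson's r was 0.299. The highest Pearson's r over all libraries was that of miR-92a-3p and miR-92a-1-5p, with r = 0.61 (permutation p = 0.0151) and rho = 0.59 (permutation p = 0.0185), and r = 0.49 without the 2 libraries farthest from the median. The highest rho was that of miR-92a-3p and miR-17-1-3p, with r = 0.54 (permutation p = 0.0238) and rho = 0.62 (permutation p = 0.00998), and r = 0.57 without the 2 farthest libraries. The order of the pairs thus depended on the measure, and without the 2 farthest libraries miR-17-1-3p and miR-18a-5p had the highest r, 0.61. miR-92a-3p and miR-20a-5p, the most abundant members, had r = 0.50 (permutation p = 0.0632), which was 0.36 without the 2 farthest libraries. The X-linked miR-17-2-3p and miR-20a-5p had r = -0.17 (permutation p = 0.556). After adjustment over 15 pairs no p-value passed 0.05; the smallest was 0.141 for Pearson's r and 0.0898 for Spearman's rho.

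**Figure D5:**
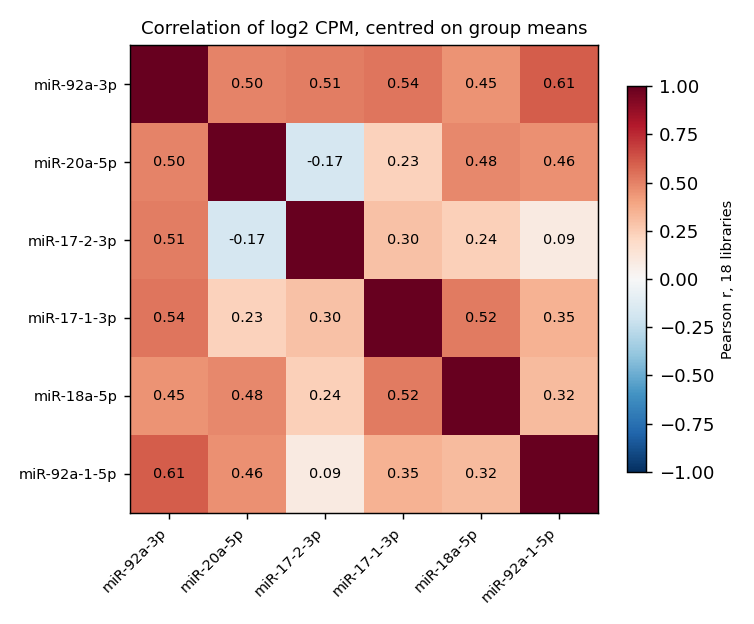
Pearson's r between members over 18 libraries after removal of group means, for the 15 pairs; the colour gives r from -1 to 1. The highest value is that of miR-92a-3p with miR-92a-1-5p (0.61) and the value of miR-20a-5p with miR-17-2-3p lies below 0 (-0.17).

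The miRNAs whose pattern over 18 libraries was most like the mean of miR-92a-3p, miR-20a-5p and miR-17-2-3p were miR-342-3p (Spearman's rho 0.853, level 219.4 CPM), miR-155-5p (0.736, 55.3 CPM) and miR-142-3p (0.676, 32.8 CPM). That mean joins miR-20a-5p and miR-17-2-3p, whose own Pearson's r was -0.17. miR-155-5p and miR-142-3p are known from cells of the immune system. The blood and immune list held 9 tested entries, of which 7 had a rho above 0, with a median of 0.525. Over 367 tested miRNAs outside the cluster 173 had a rho above 0, and the median was -0.0341. The highest of the list after miR-142-3p were miR-142-5p (0.614), miR-150-5p of lymphocytes (0.604) and miR-223-3p of myeloid cells (0.571), and the lowest was miR-451-5p of red blood cells (-0.307). In the sensory neuron list 1 of 4 had a rho above 0, with a median of -0.386, and the endothelial miR-126a-3p had a rho of -0.42. All 3 tested fibroblast entries had a rho above 0, with a median of 0.214. Both tested skeletal muscle entries did too, with a median of 0.291, and the glial miR-219a-1-3p had a rho of 0.0072. In the related list 7 of 14 had a rho above 0, with a median of 0.0031 and a range from -0.548 to 0.595. The summed level of the blood and immune list was 955 to 2820 CPM in naive rats. It was 1490 to 3074 CPM in bPYX+GFP and 1227 to 2214 CPM in bPYX+NT3. Of its 9 tested entries, 0 had an adjusted p under 0.05 in any comparison (edgeR). Over all tested miRNAs the share was 2.41% in bPYX+GFP against naive and 0% in the other comparisons. The part of such cells in the level of the cluster was not tested.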

How the data were processed

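The authors trimmed reads, aligned them with Bowtie2 to Rnor_5.0 and counted them with HTSeq; versions of these tools are not given in the sources used here. The deposited values are raw counts per mature miRNA, without normalization or molecular identifiers, and 5 totals of unassigned reads were left out. No library was a copy of another (smallest chi-square per degree of freedom between libraries of 1 group, 39.6). Naive replicate 1, left out by the study, was kept, and its omission is among the alternatives below.

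miRNAs with more than 10 counts in at least 6 of 18 libraries were tested with edgeR 4.0.16 in R 4.3.3 (TMM scaling, quasi-likelihood F test, 2-sided, 12 libraries per comparison, Benjamini-Hochberg adjustment over 373 miRNAs). Tests were also run on simulated data, but the outcome is not given here and no result rests on it. Correlations used log2 CPM with a prior count of 2, centred on group means, and 100000 permutations within groups, 2-sided. Every entry of the cluster was named, relatives and markers where their unadjusted p was under 0.05 or where they were most abundant, with the 3 most alike miRNAs; miRNAs at 0 and others named beyond this were chosen after their values were seen.

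The members and lists were chosen with earlier results of these data known. RefSeq GRCr8 differs from the build behind the counts, so its coordinates are not printed; 688 of 753 entries matched it by name. Alternatives were other scalings, filters and tests (DESeq2 1.42.0 among them), 1 fit of all 3 groups, a block for the replicate number and the omission of each library in turn.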

Additional observations from a re-analysis of the deposited data

Results flagged for a closer look

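For the 6 members and their sum, no library stood apart from the rest of its group by Dixon's criterion in any of 21 groups of 6 rats, where chance would give about 1.05.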

How the results depend on the processing

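None of the 18 fold changes of the members passed an adjusted p of 0.05 under any of 369 alternatives, and 350 of these kept their direction. Against naive rats, miR-20a-5p in bPYX+NT3 turned to 0.047 with library size only and to 0.0077 with a filter of more than 100 counts, which left miR-17-1-3p, miR-18a-5p and miR-92a-1-5p without a value. Leaving out 1 library at a time turned or moved log2 fold changes. In bPYX+GFP against naive, miR-92a-3p ran from -0.10 to 0.0092, miR-20a-5p from -0.15 to -0.015, miR-18a-5p from -0.53 to -0.22, miR-92a-1-5p from -0.35 to -0.13 and miR-17-1-3p from -0.19 to 0.13. Between the injured groups, miR-92a-3p ran from -0.0091 to 0.16, miR-20a-5p from 0.0034 to 0.14, miR-17-2-3p from 0.15 to 0.30, miR-18a-5p from 0.036 to 0.38, miR-17-1-3p from -0.0083 to 0.30 and miR-92a-1-5p from -0.20 to 0.049. For bPYX+NT3 against naive, miR-92a-3p ran from -0.035 to 0.14, miR-20a-5p from -0.084 to 0.066, miR-17-2-3p from -0.15 to 0.020, miR-18a-5p from -0.30 to -0.027, miR-92a-1-5p from -0.41 to -0.20 and miR-17-1-3p from -0.022 to 0.26. The cause was not tested.

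miR-17-2-3p in bPYX+GFP against naive kept an unadjusted p under 0.05 in all 21 alternatives, with adjusted p-values from 0.0550 to 0.212. The members with an unadjusted p under 0.05 numbered 1 to 2 on leaving out a library in bPYX+GFP against naive (2 without bPYX+GFP replicate 6, where miR-18a-5p had an unadjusted p of 0.0404) and 0 to 1 in bPYX+NT3 against bPYX+GFP. In the reported test 21.2%, 8.58% and 13.7% of all tested miRNAs passed this threshold in the 3 comparisons. The shares under the alternatives, the replicate block included, are not given here. The X-linked entries, a result and alternatives added after seeing the data, include both arms of miR-20b and of miR-363. Of these 5 entries, the number at this threshold was 3 to 5 in bPYX+GFP against naive over all alternatives. Between the injured groups the number was 0 to 1. For bPYX+NT3 against naive it was 1 with library size only, with a filter of more than 100 counts and with the edgeR likelihood ratio test, and 1 to 3 on leaving out a library. The median correlation of the members ran from 0.299 to 0.509. Over all 373 miRNAs, adjusted calls in bPYX+GFP against naive numbered 9 in the reported test and 23 with DESeq2.

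Same-numbered libraries of 2 groups correlated by -0.38 to 0.37, and at most 4 of 12 libraries correlated best with their own number, so the numbers were not taken as pairing. With the replicate block, 1, 0 and 0 members had an unadjusted p under 0.05 in the 3 comparisons, as without it, and miR-17-2-3p in bPYX+GFP against naive had a log2 fold change of -0.29 and an adjusted p of 0.118 by edgeR. Over all 373 miRNAs the block moved adjusted calls in that comparison from 9 to 7. Depth limits the rare members, where counting alone gives a coefficient of variation of 20.7% to 25.2%.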

Other observations

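Of the 688 entries matched to RefSeq, 659 had their mature sequence at 1 place and 29 at 2 or more. The detection filter was met by 337 of the former (51.1%) and 13 of the latter (44.8%), with medians of the mean count per library of 12.2 and 1.72. A mean under 5 counts per library was found for 292 of the 659 and for 15 of the 29. Among these 15 were miR-24-3p (0.33), miR-9a-5p (0.17) and miR-29b-3p (0). Of the 29, 4 were far higher: miR-128-3p had a mean of 38200 counts per library, let-7c-5p 12153, miR-92a-3p 7372 and miR-138-5p 4773. A difference between entries with 1 place and those with 2 or more was not tested.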
